A study of Homo sapiens with 6 samples.

Results

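The 10 genes described here build and organise chromosomes in dividing cells. They were chosen by name, as TOP2A, MKI67, SMC2, SMC4, NCAPD2, NCAPG, NCAPH, NCAPD3, SMC3 and RAD21, out of 34954 genes in the tables, with earlier results of these data known. The first 8 were taken as proliferation-linked and the last 2, SMC3 and RAD21, as constitutive cohesin. All 10 passed the minimum of 0.5 FPKM (a level that the authors corrected for transcript length and sequencing depth) set on the mean of the libraries compared.

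A549, an established line of lung adenocarcinoma cells, was the only cell line used. Cells were transfected with Lipofectamine 3000 and harvested 48 h later, after a negative control siRNA (si-ctrl, the controls), a first siRNA against the long noncoding RNA PLANE (si-PLANE.1) or a second siRNA against it (si-PLANE.2). Each group had 2 RNA-seq libraries, numbered 1 and 2 in si-ctrl, 1 and 2 in si-PLANE.1, and 3 and 4 in si-PLANE.2. Nothing in the labels says that the libraries of a group came from separate cultures, so the p-values measure the spread between these libraries, which may be technical. The level of PLANE was not analysed here, and its knockdown is therefore unchecked.

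Condensin and cohesin are ring-shaped complexes that hold DNA through a pair of SMC ATPases closed by further subunits. Condensin forms loops that compact chromosomes when cells enter mitosis, and it exists as condensin I and condensin II, which share SMC2 and SMC4 and differ in the other subunits. Cohesin holds sister chromatids together from S phase until anaphase and forms chromatin loops in interphase, also in cells that do not divide. TOP2A, the topoisomerase that passes one DNA duplex through another, untangles sister chromatids, and MKI67, the antigen Ki-67, coats mitotic chromosomes and is the usual stain for cycling cells.

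Library totals ran from 10572151 to 20778431 expected counts, and single members held between 330 and 11201 counts in a library. After si-PLANE.1, edgeR's quasi-likelihood test called 5 of 14535 genes at an adjusted p under 0.05, and 1517 had an unadjusted p under 0.05. After si-PLANE.2, 4571 genes were lower and 4512 higher of 14168, and under scaling by total counts alone the share of higher genes among those called went from 49.7% to 39.8%. With limma on log2(TPM + 1), where TPM is FPKM rescaled to the same total in each library and the test differs too, it was 28.6%. Counted by total alone, or fitted in limma on log2(FPKM + 1) or log2(TPM + 1), the median gene after si-PLANE.2 lay at -0.20, -0.22 or -0.37 on the log2 scale, against -0.03 with the TMM scaling used here. The 31 histone genes, most of which lack a poly(A) tail, summed to 233 and 224 FPKM after si-PLANE.2 and to between 4194 and 7393 FPKM in the other libraries. A difference in library preparation and an effect of si-PLANE.2 cannot be told apart in any value of that group. The labelled cell type was checked on markers. Of 5 epithelial genes, the keratins KRT8 and KRT18 were at 2712 FPKM or more in each library and KRT19 at 0.76 to 5.38 FPKM. The adhesion genes of that list were lower after si-PLANE.2, with CDH1 at 130 and 156 FPKM in the controls, 160 and 155 after si-PLANE.1 and 36.5 and 35.4 after si-PLANE.2, and EPCAM at 18.3 and 15.4, then 14.8 and 26.5, then 2.59 and 2.70 FPKM. Among leukocyte genes, CD68 stood at 18.3 to 63.0 FPKM and CD14 at 4.06 to 9.41 FPKM over the 6 libraries, both highest after si-PLANE.2, with CD3E at 0 in all 6 and PTPRC at or below 0.02. The 4 fibroblast genes summed to 8.43 to 20.6 FPKM in the si-ctrl libraries and those of si-PLANE.1 and to 3.76 and 4.54 after si-PLANE.2, most of it COL1A1 and LUM, and the endothelial genes VWF and CDH5 stayed at or below 0.43 FPKM. The part of these markers in the results was not tested.

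Many genes of mitosis carry in their promoters the cell cycle genes homology region (CHR, here spelled TTTGAA or TTTCGAA) close to CCAAT boxes. These letters were searched on both strands in the RefSeq promoters of GRCh38.p14, each of 300 bases, which held 12 entries for 9 of the members, all but RAD21. A CHR spelling was found in 8 of these 12 promoters (66.7%), against 15.7% of all 35116, and CCAAT in 5 of 12 (41.7%), against 34.6%. Of the 8 with a CHR spelling, those of TOP2A, MKI67, NCAPD2 and NCAPD3 also held CCAAT, and those of SMC2, SMC4, NCAPG and SMC3 did not. Both spellings were found in 6.12% of all promoters. An E2F spelling (TTTGGCGC, TTTGCCGC, TTTCGCGC or TTTCCCGC) was found in 1 of 12 (8.33%), against 3.32% of all promoters, and that one belonged to NCAPD3. The windows of 28 bases below, shown since all of these genes are read together in the comparisons that follow, each hold 1 CHR match in capitals, which read TTCAAA where the match lies on the opposite strand.
TOP2A, chr17:40417847-40418146, minus strand: tgattggtttaTTCAAAcaaaccccggc
MKI67, chr10:128126374-128126673, minus strand: tagcgccagaaTTTGAAtcttcgttttc
SMC2, chr9:104094059-104094358, plus strand: tcgcgccgaaaTTCAAAggaataaatag
SMC4, chr3:160399400-160399699, plus strand: ccgcactttttTTCAAAttagtggatcc
NCAPD2, chr12:6493852-6494151, plus strand: agccgttgagaTTTGAActcggtatttg
NCAPG, chr4:17810729-17811028, plus strand: cgcgggaattaTTTGAAcgttcgagcgg
NCAPD3, chr11:134223918-134224217, minus strand: cgggagcgagcTTTGAAagttgagcacg
SMC3, chr10:110567445-110567744, plus strand: agaattctagaTTCAAAagaaatccacc
With the start base at 0, the first base of the match lay at -35 in NCAPG, -47 in MKI67, -75 in SMC4, -145 in NCAPD2 and -151 in both TOP2A and SMC3, and it lay at -3 in SMC2 and NCAPD3. TOP2A and MKI67 each held 2 CHR matches, and the second MKI67 match shared its final base with a CCAAT match. NCAPH held no CHR spelling in its promoter and 1 CCAAT, inside ccccaagaagcCCAATcagacggggtc at -112. SMC3, placed with constitutive cohesin, had the spelling and NCAPH, placed with the proliferation-linked genes, did not. A match of letters is a description and not a site of binding.

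In si-ctrl cells the members spanned more than an order of magnitude in level. By the FPKM of the gene total, TOP2A stood first at 180 ± 14.3 (SD, n = 2), followed by NCAPD2 at 141 ± 35.5, SMC4 at 95.3 ± 3.04, RAD21 at 71.3 ± 2.75 and MKI67 at 65.4 ± 1.20. NCAPH at 27.2 ± 2.71 and SMC3 at 26.4 ± 2.61 overlapped, as did NCAPD3 at 16.9 ± 0.141, SMC2 at 16.3 ± 0.764 and NCAPG at 13.5 ± 4.00, each with its neighbour. The other 6 of 9 neighbouring pairs did not overlap in their libraries. The place of NCAPD2 rested in part on ENST00000539714 of 533 bases, at 35.5 and 65.2 FPKM in the controls. That transcript held 30.5% and 39.1% of the NCAPD2 FPKM there, with 3.51% and 5.43% of the counts. The NCAPD2 transcript of 5548 bases stood at 30.7 and 30.6 FPKM, below the leading RAD21 transcript at 61.5 and 60.3 FPKM. After si-PLANE.2, SMC4 at 61.2 ± 1.20 FPKM and TOP2A at 59.6 ± 2.01 FPKM overlapped at the top of the order, where 39.1% and 40.0% of the SMC4 FPKM lay on transcripts not annotated as protein-coding (46.2% and 48.3% in the controls). On protein-coding transcripts alone, SMC4 stood at 52.4 and 48.2 FPKM in the controls, below RAD21 at 71.1 and 65.1, and at 37.8 and 36.2 FPKM after si-PLANE.2, below TOP2A at 59.6 and 58.0 and RAD21 at 49.2 and 49.8. In the gene totals those 2 were followed by RAD21 at 54.2 ± 0.544 and NCAPD2 at 51.7 ± 1.07, with SMC2 last at 7.70 ± 0.523.

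**Figure D1:**
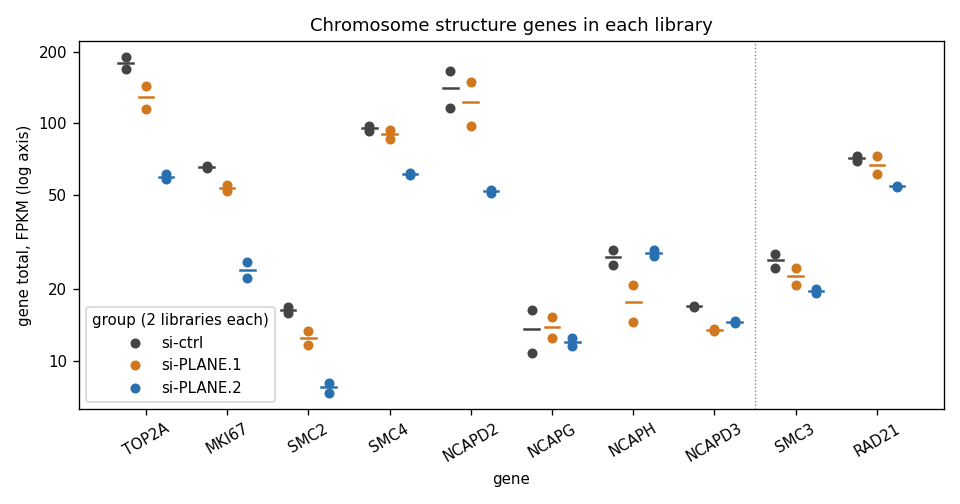
Gene total in FPKM on a log axis for the 10 genes in each of the 6 libraries, with 1 point a library, a bar at the mean of the 2 libraries of a group, and a dotted line between the proliferation-linked genes and cohesin. TOP2A fell from 190 and 170 FPKM in si-ctrl to 61.0 and 58.2 FPKM after si-PLANE.2, while NCAPH showed 25.3 and 29.1 FPKM with the control siRNA against 27.7 and 29.4 FPKM with si-PLANE.2.

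TOP2A was lower in all 4 libraries treated with a PLANE siRNA than in either control. Its gene total was 190 and 170 FPKM in si-ctrl, 115 and 144 FPKM after si-PLANE.1, and 61.0 and 58.2 FPKM after si-PLANE.2. The groups did not overlap on this scale. In bulk RNA such as this, fewer cells in mitosis and less RNA in each such cell cannot be told apart. In CPM, the counts scaled to library size with TMM, however, the treated groups lay together, with 607 and 629 CPM in si-ctrl, 375 and 468 CPM after si-PLANE.1 and 381 and 368 CPM after si-PLANE.2. The log2 fold change of the counts was -0.56 ± 0.16 (SE) after si-PLANE.1, with an adjusted p of 0.359 in edgeR, and -0.73 ± 0.10 after si-PLANE.2, with an adjusted p of 0.000397. The difference between the siRNAs was -0.17 ± 0.13 in counts, with an adjusted p of 0.284 in edgeR, and -1.10 on the log2(FPKM + 0.1) scale, with an adjusted p of 0.000831 in limma.

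The gap between the TOP2A scales went with 1 short transcript. ENST00000581055, of 579 bases and 5 exons at the 5' end of the gene, stood at 81.1 and 58.4 FPKM in the controls, 41.0 and 57.4 FPKM after si-PLANE.1, and 0 FPKM in each si-PLANE.2 library. It held 34.4% to 42.7% of the FPKM of TOP2A in the si-ctrl libraries and those of si-PLANE.1, with 3.11% to 4.36% of its counts. The long transcript ENST00000423485, of 5758 bases and 35 exons, went from 106 and 108 FPKM in si-ctrl to 70.2 and 83.7 FPKM after si-PLANE.1 and 59.6 and 58.0 FPKM after si-PLANE.2. A short transcript weighs more in FPKM than in counts, so folds below are those of the counts.

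MKI67 gave the lowest fold of the members after si-PLANE.2. The gene stood at 64.6 and 66.3 FPKM in the controls, 55.0 and 51.8 FPKM after si-PLANE.1, and 22.2 and 25.9 FPKM after si-PLANE.2, with no overlap between the groups. It fell to 41.4% of si-ctrl after si-PLANE.2 (log2 -1.27 ± 0.11, adjusted p = 6.83e-05 in edgeR). After si-PLANE.1 the value was -0.39 ± 0.15, with an adjusted p of 0.423 in edgeR, and the difference between the siRNAs itself passed the test (-0.87 ± 0.13, adjusted p = 0.000345 in edgeR). Of its main transcripts, the one of 12678 bases held 70.0% to 81.4% of the FPKM in the si-ctrl libraries and those of si-PLANE.1 and 53.9% and 63.6% after si-PLANE.2, and the one of 11417 bases held most of the rest.

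SMC2 and SMC4, the ATPase pair that both condensins share, were lower with each siRNA and passed the test with si-PLANE.2. SMC2 stood at 16.9 and 15.8 FPKM in the controls, 11.6 and 13.3 FPKM after si-PLANE.1, and 8.07 and 7.33 FPKM after si-PLANE.2. The groups did not overlap, and the log2 fold changes were -0.52 ± 0.14 (adjusted p = 0.359 in edgeR) and -0.81 ± 0.10 (adjusted p = 0.000284 in edgeR). SMC4 stood at 97.4 and 93.1 FPKM in the controls, 85.7 and 94.0 FPKM after si-PLANE.1, and 62.0 and 60.3 FPKM after si-PLANE.2. Only the si-PLANE.2 libraries of SMC4 lay apart from si-ctrl in FPKM, with a log2 fold change of the counts of -0.96 ± 0.10 (adjusted p = 0.000128 in edgeR), while that of si-PLANE.1 was -0.26 ± 0.14 (adjusted p = 0.559 in edgeR). The SMC4 difference between the siRNAs passed the test (-0.69 ± 0.12, adjusted p = 0.00103 in edgeR), and that of SMC2 did not (-0.29 ± 0.12, adjusted p = 0.066 in edgeR).

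The FPKM of SMC4 rested on several transcripts. The coding transcript ENST00000469762 of 3998 bases held 31.5% to 35.8% of the FPKM in the si-ctrl libraries and those of si-PLANE.1 and 9.21% and 6.68% after si-PLANE.2. ENST00000497311, of 708 bases, held 0% to 6.24% in the former and 29.5% and 31.4% in the latter. SMC4 shares 1553 exon bases with TRIM59 on the opposite strand. TRIM59 stood at 15.05 and 14.65 FPKM in the controls, 20.21 and 18.62 FPKM after si-PLANE.1, and 6.91 and 4.43 FPKM after si-PLANE.2. The sources used here do not say that counting used strand, so reads of the overlap cannot be told apart. The same holds for NCAPD2, which shares 383 exon bases with MRPL51 (70.5 and 63.9 FPKM in the controls and 129 and 122 FPKM after si-PLANE.2), for RAD21, which shares 576 with UTP23 (6.89 and 4.83, then 17.9 and 22.5 FPKM), and for NCAPD3, which shares 1889 with JAM3 (5.21 and 4.71, then 5.52 and 4.82 FPKM).

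The non-SMC subunits of condensin I did not move as one. NCAPD2, a HEAT-repeat subunit, stood at 116 and 167 FPKM in the controls, 97.9 and 149 FPKM after si-PLANE.1, and 50.9 and 52.4 FPKM after si-PLANE.2. The libraries of si-ctrl and si-PLANE.1 overlapped and both si-PLANE.2 libraries lay below them. Its counts fell by 0.70 ± 0.12 on the log2 scale after si-PLANE.2 (adjusted p = 0.00156 in edgeR) and gave -0.26 ± 0.19 after si-PLANE.1 (adjusted p = 0.664 in edgeR). The difference between the siRNAs was -0.44 ± 0.16 (adjusted p = 0.0424 in edgeR). Without si-PLANE.1 library 1, 2 or si-PLANE.2 library 3 or 4, that difference ran from -0.64 to -0.20, and leaving out si-PLANE.1 library 2 gave an adjusted p of 0.267.

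NCAPG, the other HEAT-repeat subunit of condensin I, was among the lowest members, at 16.4 and 10.7 FPKM in the controls, 15.3 and 12.4 FPKM after si-PLANE.1, and 12.5 and 11.5 FPKM after si-PLANE.2. On this scale the 3 groups overlapped. In counts the order differed, with 44.2 and 40.0 CPM in si-ctrl, 32.9 and 36.4 CPM after si-PLANE.1, and 53.5 and 48.2 CPM after si-PLANE.2. Neither siRNA passed the test against si-ctrl, with -0.29 ± 0.15 (adjusted p = 0.553 in edgeR) and 0.26 ± 0.11 (adjusted p = 0.0723 in edgeR). The counts of the siRNAs differed by 0.55 ± 0.12 (adjusted p = 0.00372 in edgeR), but this turned to -0.19 on the log2(FPKM + 1) scale and to -0.02 when only protein-coding transcripts were summed. NCAPG also shares 1634 exon bases with LCORL on the opposite strand. LCORL stood at 6.27 and 5.86 FPKM in the controls, 6.38 and 7.01 FPKM after si-PLANE.1, and 3.47 and 3.64 FPKM after si-PLANE.2.

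NCAPH, the kleisin that closes the ring of condensin I, was the member called higher. It stood at 43.5 and 44.2 CPM in si-ctrl, 31.7 and 30.4 CPM after si-PLANE.1, and 57.8 and 55.9 CPM after si-PLANE.2, so that the groups lay apart with si-ctrl between the siRNAs. The log2 fold change was -0.50 ± 0.14 after si-PLANE.1 (adjusted p = 0.349 in edgeR) and 0.36 ± 0.10 after si-PLANE.2 (adjusted p = 0.0128 in edgeR), and the siRNAs differed by 0.87 ± 0.11 (adjusted p = 0.000134 in edgeR). The rise after si-PLANE.2 was lost under scaling by total counts (0.19, adjusted p = 0.127 in edgeR), in FPKM (0.07, adjusted p = 0.665 in limma) and with protein-coding transcripts alone (0.26, adjusted p = 0.0658 in edgeR), and it turned to -0.09 in TPM. Without si-PLANE.2 library 3 or library 4 the adjusted p in edgeR was 0.117 or 0.082.

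NCAPD3, which belongs to condensin II and stays in the nucleus through interphase, stood at 16.8 and 17.0 FPKM in the controls, 13.6 and 13.4 FPKM after si-PLANE.1, and 14.3 and 14.7 FPKM after si-PLANE.2. Both siRNA groups lay below si-ctrl without overlap. The log2 fold changes were -0.44 ± 0.12 (adjusted p = 0.359 in edgeR) and -0.11 ± 0.10 (adjusted p = 0.334 in edgeR), and the siRNAs differed by 0.33 ± 0.09 (adjusted p = 0.0136 in edgeR). That difference turned to -0.12 in TPM, and leaving out si-PLANE.1 library 1, si-PLANE.2 library 3 or si-PLANE.2 library 4 gave adjusted p-values of 0.0502, 0.0647 and 0.0917. Of the condensin II subunits that are no members, NCAPH2, its kleisin, rose by 1.65 and NCAPG2 by 0.32 after si-PLANE.2 (adjusted p = 2.48e-05 and 0.0424 in edgeR).

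SMC3, a cohesin ATPase, had all of its counts on a single transcript in the 6 libraries. Its level was 28.3 and 24.6 FPKM in si-ctrl, 20.8 and 24.5 FPKM after si-PLANE.1, and 19.9 and 19.2 FPKM after si-PLANE.2, with the treated libraries below both controls. Neither fold passed the test, with -0.31 ± 0.14 (adjusted p = 0.515 in edgeR) and -0.25 ± 0.10 (adjusted p = 0.0644 in edgeR). The second moved past the threshold without si-ctrl library 2 (-0.32, adjusted p = 0.00302 in edgeR). RAD21, the kleisin of mitotic cohesin that separase cuts at anaphase, stood at 73.2 and 69.3 FPKM in the controls, 61.1 and 72.8 FPKM after si-PLANE.1, and 53.9 and 54.6 FPKM after si-PLANE.2. The si-PLANE.1 libraries of RAD21 lay on both sides of a control, whereas both si-PLANE.2 libraries lay below. RAD21 fell by 0.48 ± 0.09 on the log2 scale after si-PLANE.2 (adjusted p = 0.00238 in edgeR, and 0.0567 without si-PLANE.2 library 4) and gave -0.16 ± 0.15 after si-PLANE.1 (adjusted p = 0.738 in edgeR). RAD21 stood 2.59 to 2.97 times above SMC3 in FPKM in the 6 libraries.

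Put together by comparison, 10 of 10 members were below zero after si-PLANE.1, with a median log2 fold change of -0.35 against 0.0018 for all genes tested. Lower values were not particular to the members, as 14 of 15 housekeeping genes were below zero there too, with a median of -0.26. By the adjusted p, 0 of 10 members were called in edgeR (0.0344% of all genes were). DESeq2 called 124 of all 14535 genes and 1 of 10 members, TOP2A, with an adjusted p of 0.0371. At an unadjusted p under 0.05, 5 members were lower, namely TOP2A, MKI67, SMC2, NCAPH and NCAPD3, against 5.77% of all genes lower at that p. In CPM, both si-PLANE.1 libraries lay below both si-ctrl libraries for 8 of 10 members (all but NCAPD2 and RAD21), against 21.6% of all genes. After si-PLANE.2, 6 of 10 members were called lower, against 32.3% of all genes, and 1 higher, against 31.8%, with a median of -0.59 beside -0.03 for all genes. In CPM both si-PLANE.2 libraries lay below both controls for 8 of 10 members and above them for 2, NCAPG and NCAPH, against 41.9% and 41% of all genes. The share of members called in either direction, 7 of 10, was near the 64.1% of all genes called in that comparison. Both siRNA groups were set against the same si-ctrl libraries, so the comparisons are not independent of each other. Between the siRNAs 6 of 10 members differed, near the 64.4% of all genes that did. Of these, 3 were lower with si-PLANE.2 (MKI67, SMC4 and NCAPD2), against 33.4% of all genes, and 3 were higher (NCAPG, NCAPH and NCAPD3), against 31.1%.

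**Figure D2:**
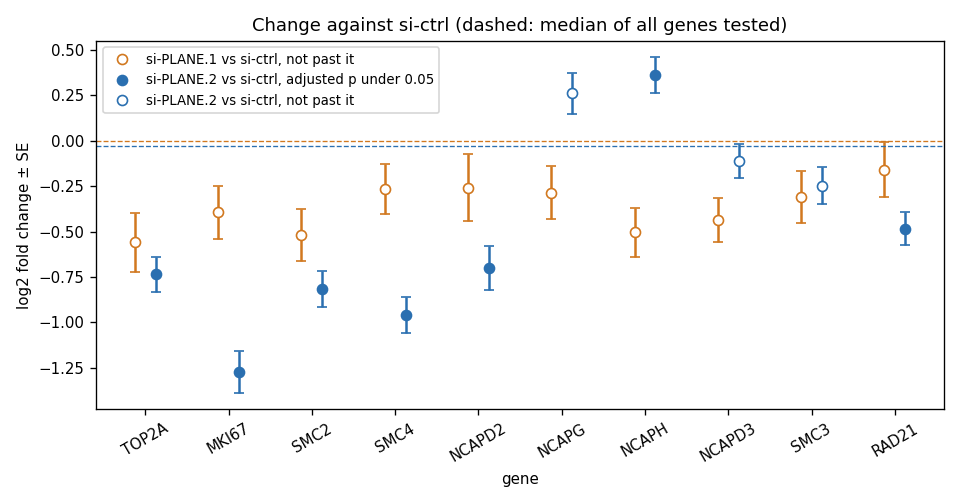
Log2 fold change against si-ctrl with its standard error for each gene and siRNA, from edgeR on the counts of 2 against 2 libraries. Filled points passed an adjusted p of 0.05, open points did not, and dashed lines mark the median of all genes tested. The si-PLANE.1 values ran from -0.56 for TOP2A to -0.16 for RAD21 and the si-PLANE.2 values from -1.27 for MKI67 to 0.36 for NCAPH, which turned to -0.09 in TPM.

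The libraries were also read by replicate number, which the labels do not say marks a pair. The ratio of si-PLANE.1 to si-ctrl in CPM was below 1 for 10 of 10 members between the libraries numbered 1. It was below 1 for 9 of 10 between those numbered 2. These ratios were taken for the members only, so no share of all genes stands beside them. On the log2 scale the first pair ran from -0.70 for SMC2 to -0.33 for RAD21, with a median of -0.42, and the second from -0.54 for NCAPH to 0.01 for RAD21, with a median of -0.26. SMC3 gave -0.54 and -0.08, TOP2A -0.69 and -0.43, and MKI67 -0.36 and -0.41. Within the si-PLANE.1 group, library 2 lay above library 1 for 7 of 10 members, by up to 0.44 for NCAPD2. In si-PLANE.2, library 4 was below library 3 for 7 of 10 members, with a median of -0.05, and MKI67 differed by 0.23 in the other direction.

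The proliferation-linked genes were set beside constitutive cohesin. The mean log2 CPM of the 8 proliferation-linked genes was 7.32 and 7.35 in si-ctrl, 6.85 and 7.02 after si-PLANE.1, and 6.86 and 6.84 after si-PLANE.2, and that of SMC3 and RAD21 was 7.29 and 7.21, then 6.85 and 7.17, then 6.92 and 6.87. Both means were lower in all 4 treated libraries than in either control. That did not hold for the mean of 5 cohesin core genes (SMC1A, SMC3, RAD21, STAG1 and STAG2). It was 7.10 and 6.95 in si-ctrl, 6.86 and 6.96 after si-PLANE.1, and 6.89 and 6.86 after si-PLANE.2. The difference of the proliferation-linked mean from that of SMC3 and RAD21 was 0.03 and 0.14 in si-ctrl, -0.003 and -0.15 after si-PLANE.1, and -0.07 and -0.02 after si-PLANE.2. It was thus lower in each treated library, by 0.16 and 0.13 on average, while the libraries of 1 group were up to 0.15 apart and the pooled SD within groups was 0.08. As medians of the fitted folds, the proliferation-linked genes stood at -0.42 and cohesin at -0.23 after si-PLANE.1, and at -0.72 and -0.37 after si-PLANE.2. The gap after si-PLANE.1, -0.18, went to -0.01 when only the most abundant transcript of each gene was counted, and leaving out 1 library moved it between -0.30 and -0.05. The gap after si-PLANE.2, -0.35, ran from -0.44 to -0.23 without 1 library and was -0.72 for the most abundant transcript. Within the proliferation-linked set, NCAPG and NCAPH followed another course after si-PLANE.2 than TOP2A, MKI67, SMC2, SMC4 and NCAPD2, as their values above show.

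**Figure D3:**
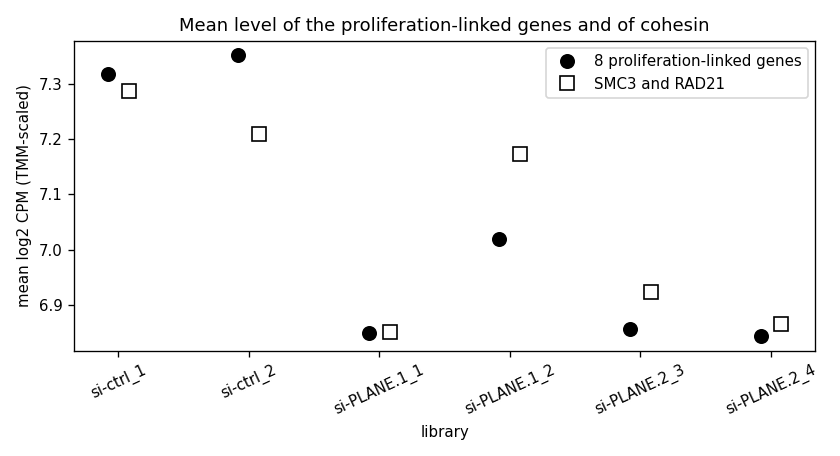
Mean log2 CPM, scaled by TMM, of the 8 proliferation-linked genes (filled circles) and of SMC3 and RAD21 (open squares) in each of the 6 libraries. Both means lie above 7.2 in the si-ctrl libraries, and after si-PLANE.2 both lie between 6.84 and 6.92.

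The transcripts that hold the FPKM of a gene differed between the si-PLANE.2 libraries and the rest in several members. The 10 members have 96 transcripts in the tables. In NCAPD2, ENST00000542492 of 1052 bases held 19.2% to 22.0% of the FPKM in the si-ctrl libraries and those of si-PLANE.1 and 0% and 0.496% after si-PLANE.2, whereas the transcript of 5548 bases, ENST00000315579, went from 30.7 and 30.6 FPKM in si-ctrl to 14.2 and 16.6 FPKM. In NCAPG, the transcript ENST00000514176, annotated for nonsense-mediated decay, held 0% to 11.9% in the former and 38.8% and 40.7% in the latter, while the coding transcript of 4661 bases stayed between 6.50 and 8.61 FPKM in all 6 libraries. In RAD21 the leading transcript ENST00000297338 held 84.0% to 87.7% and then 69.9% and 65.6%. The shares of the NCAPD2 and RAD21 transcripts overlapped between si-ctrl and si-PLANE.1, whereas that of ENST00000514176 did not, at 6.72% and 11.9% in si-ctrl against 1.63% and 0% after si-PLANE.1. In the si-PLANE.2 libraries, library preparation and siRNA cannot be told apart. These shares are estimates from short reads that transcripts share, and in NCAPD2 a pair of transcripts, ENST00000539084 and ENST00000545962, carried identical values.

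**Figure D4:**
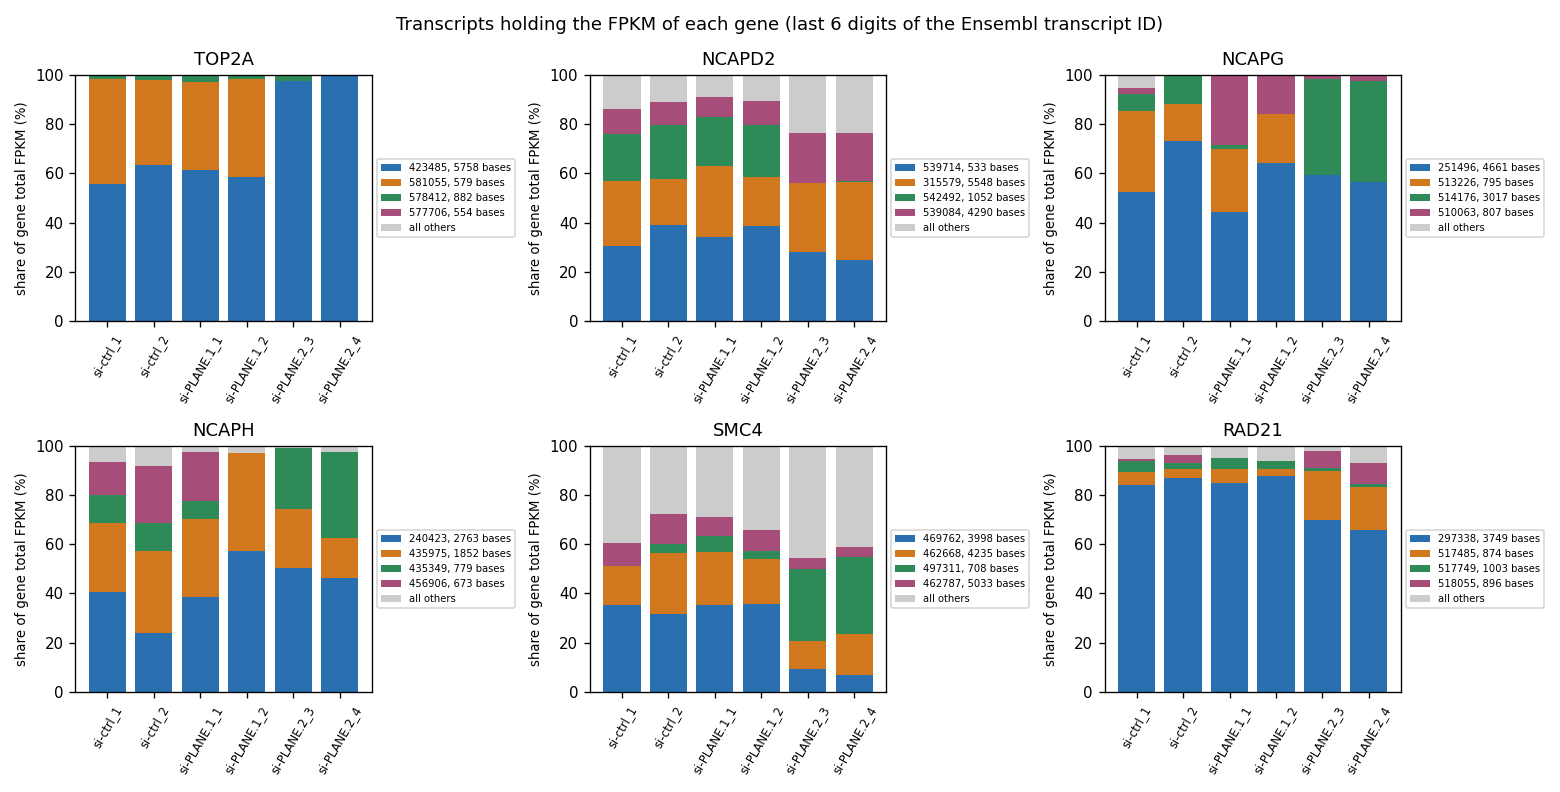
Share of the gene total FPKM (percent) held by the 4 leading transcripts and by all others of 6 members, stacked to 100 for each of the 6 libraries, with transcripts named by the last 6 digits of their Ensembl identifier and their length. The orange share of TOP2A, the transcript of 579 bases, lies between 34.4% and 42.7% in the si-ctrl libraries and those of si-PLANE.1 and at 0% after si-PLANE.2.

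The partners of these genes were taken from lists of the same pathways. None of the genes on the lists of related pathways passed the adjusted p after si-PLANE.1 in edgeR. The kinases and cyclins that act on condensin (CDK1, CCNB1, CCNB2, CCNA2, PLK1 and AURKA) were lower at an unadjusted p under 0.05 in 6 of 6, against 5.77% of all genes, with a median of -0.57 beside 0.0018 for all genes. Of the genes of sister separation, 4 of 4 were lower at that p, with a median of -0.44. Among them were ESPL1, the separase (-0.45), and PTTG1, its inhibitor securin (-0.52). Of this list only ESPL1 overlapped in FPKM, at 19.09 and 16.39 in the controls and 18.55 and 16.43 after si-PLANE.1. The cohesin loaders and regulators stood at a median of 0.06, with 0 of 9 at that p, and the other topoisomerases at -0.03, with 0 of 5, TOP2B among them at 0.08. The SMC5/6 complex stood at -0.06 with 0 of 7, and the genes of the chromosome periphery, scaffold and passenger complex at -0.35 with 4 of 9 lower. In the cohesin core SMC1A stood at -0.41, STAG1 at 0.20 and STAG2 at 0.10, with adjusted p-values from 0.378 to 0.817 in edgeR. The 15 housekeeping genes gave -0.26, with 14 of 15 below zero and 2 at an unadjusted p under 0.05.

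After si-PLANE.2, 4 of 4 genes of sister separation fell, with PTTG1 at -2.21 and the shugoshins SGO1 and SGO2 at -1.17 and -1.35, for a median of -1.26 beside -0.03 for all genes. Of all genes, 32.3% were called lower and 31.8% higher in this comparison, 64.1% in all. Of 9 cohesin regulators 6 fell and 2 rose. Those that fell were the loader NIPBL (-1.87), the acetyltransferases ESCO1 (-1.73) and ESCO2 (-0.67), PDS5A (-1.17) and PDS5B (-1.47), which hold cohesin on or off chromatin, and the release factor WAPL (-0.56, though its FPKM overlapped, at 11.5 and 10.2 in the controls and 10.4 and 11.7 after si-PLANE.2). The 2 that rose, named after their values were seen, were CDCA5, or sororin, which protects cohesion (1.04), and MAU2, the partner of NIPBL in loading (0.39, though its FPKM went from 10.9 and 11.9 in the controls down to 10.1 and 9.39). In the cohesin core STAG2 fell by 0.81 and SMC1A rose by 0.57, so that SMC1A, RAD21 and STAG2, which join in 1 complex, differed in direction. TOP2B fell by 0.52 while the other 4 topoisomerases on the list rose by 0.34 to 0.58. For TOP1, TOP3A and TOP3B, however, the FPKM of si-ctrl and si-PLANE.2 overlapped. TOP1 stood at 26.86 and 22.82 FPKM in the controls and 29.46 and 25.79 FPKM after si-PLANE.2. Of the kinases and cyclins 3 fell, with CCNA2 at -0.65 and PLK1 at -0.66, and CCNB1 rose by 0.68. The list of the periphery and passenger complex had 4 that rose, with HMGB2 at 1.42 and BIRC5 at 1.07, and 1 that fell, ANP32E, at -0.83. Of the SMC5/6 genes 3 fell and 3 rose, with EID3 at -1.79, SMC6 at -0.64 and NSMCE3 at 0.70. In the same comparison 10 of 15 housekeeping genes rose in counts and 1 fell, with a median of 0.75 over the list. Of those that rose, SDHA (0.30) was the exception in FPKM. It went from 110 and 104 FPKM in the controls down to 95.6 and 94.5 after si-PLANE.2.

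**Figure D5:**
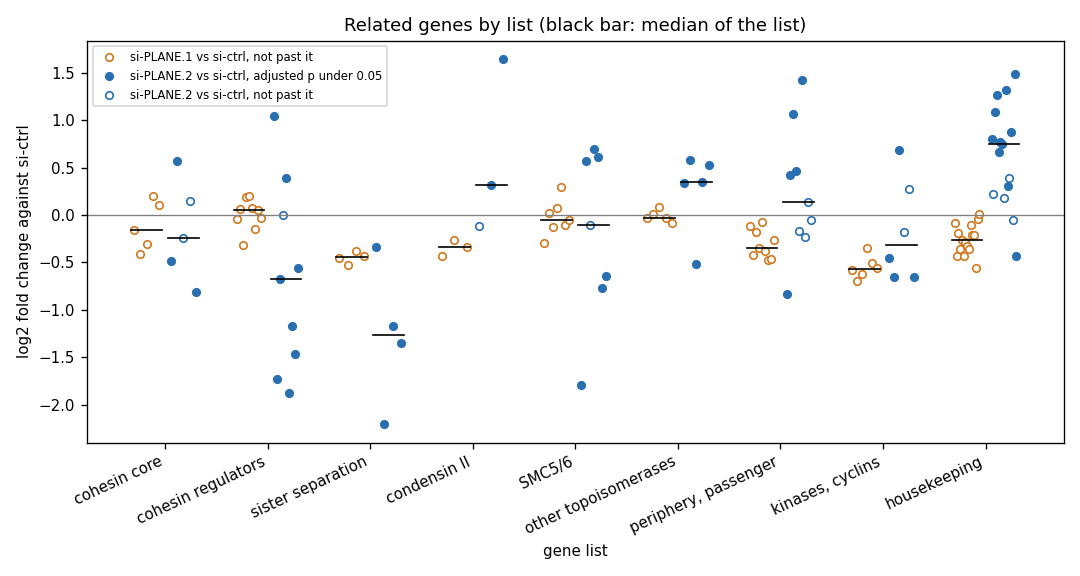
Log2 fold change against si-ctrl for genes of related pathways, by list, with 1 point a gene, filled where the adjusted p in edgeR was under 0.05, and a black bar at the median of the list. After si-PLANE.1 all points are open, and after si-PLANE.2 the 4 genes of sister separation lie from -2.21 to -0.33 while the housekeeping median lies at 0.75.

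Of the cohesin genes of meiosis, SMC1B and RAD21L1 stayed at or below 0.52 FPKM and were not tested, REC8 did not pass the test with either siRNA, and STAG3 rose by 0.77 after si-PLANE.2 (adjusted p = 0.00798 in edgeR). Among the genes outside the members, those whose log2 CPM over the 6 libraries was most like the mean of the 8 proliferation-linked genes were GCH1 (Pearson r = 0.996), SLC26A2 (0.992), HIF1AN (0.990), PRIM2 (0.989) and VPS72 (0.988). These correlations over 6 libraries in 3 groups, picked as the highest of 14430 genes, are a description only. Of the members themselves TOP2A (0.997) and SMC2 (0.976) followed that mean most closely, and NCAPG (-0.11) and NCAPH (-0.09) did not, though all of these are part of it. RAD21 (0.846) and SMC3 (0.825), which are not part of it, stood below NCAPD2 (0.852) and above SMC4 (0.820), MKI67 (0.806) and NCAPD3 (0.532).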

How the data were processed

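Short-read RNA-seq libraries of A549 cells were analysed. The authors deposited an expected count for each of 180253 transcripts in each library, without normalization, and an FPKM value normalized by the authors for transcript length and depth. The submitters' processing notes name hg19, Trimmomatic 0.30, HISAT2 2.0.1, HTSeq 0.6.1 and DESeq. Which program produced the expected counts is not given in the sources used here. Poly(A) selection and rRNA depletion are both mentioned in the methods, with no statement of which library had which. Transcripts without a gene identifier, 16723 in all with 3.03% to 3.62% of the counts, were left out.

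Transcripts were summed by gene symbol. The sums of expected counts, rounded to whole numbers, entered the quasi-likelihood test of edgeR 4.0.16 in R 4.3.3, two-sided, with TMM scaling and Benjamini-Hochberg adjustment over all genes, for genes with a mean of at least 0.5 FPKM. Comparisons with si-ctrl were fitted on 4 libraries each, and the siRNAs were compared with each other in a fit of all 6. A standard error is the absolute log2 fold change over the square root of F. Biotypes and overlaps were taken from GENCODE v44lift37, whose transcript models may differ from those the authors used. Alternatives were DESeq2 1.42.0, limma 3.58.1, other scalings and filters, the most abundant transcript, a replicate block, leaving out each library and, chosen after the data had been seen, protein-coding transcripts only. On simulated data with 200 changed genes, 4-fold changes were recovered for 81.5% of genes with 17 false calls in the si-PLANE.1 comparison. The values were 87% with 16 in the si-PLANE.2 comparison and 84% with 18 between the siRNAs. Smaller changes were not simulated, such as those of the members after si-PLANE.1, -0.56 to -0.16 on the log2 scale. With 2 libraries a group the precision is low, and the part of counting error in it was not tested.

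The members and lists were chosen with earlier results of these data known. All members are named, and of each related list the genes with the 3 smallest p-values in either comparison with si-ctrl, or named as exceptions, could be named.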

Additional observations from a re-analysis of the deposited data

Results flagged for a closer look

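The difference between the siRNAs itself passed the test, in edgeR over all 6 libraries, for 6 of the 10 genes. It was -0.87 for MKI67, -0.69 for SMC4 and -0.44 for NCAPD2, lower with si-PLANE.2, and 0.87 for NCAPH, 0.55 for NCAPG and 0.33 for NCAPD3, higher with si-PLANE.2, on the log2 scale. In the same test 64.4% of all genes differed. The si-PLANE.2 libraries also stood apart in the 31 histone genes, most of which lack a poly(A) tail. Their sum was 233 and 224 FPKM against 4194 to 7393 FPKM in the other libraries. Thus siRNA and library preparation cannot be told apart.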

How the results depend on the processing

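In the si-PLANE.1 comparison the 5 genes called of all genes became 124 in DESeq2, 3 with total counts, 1 with limma on log2(FPKM + 1), 3 on log2(FPKM + 0.1), 1 on log2(TPM + 1), 0 for the most abundant transcript, 0 for protein-coding transcripts only, 17 with all 6 libraries in one fit, and 1 to 5 when 1 library was left out. The members called went from 0 to 1 in DESeq2 and stayed at 0 in all runs that left out a library. The replicate numbers that si-ctrl and si-PLANE.1 share are not said to mark a culture or day. Across 14440 genes, which are not independent, the differences between the libraries of these groups correlated at 0.34, and a replicate block called 1225 genes and 5 members (TOP2A, MKI67, SMC2, NCAPH and NCAPD3, all lower). After si-PLANE.2, no member changed the sign of its fold when 1 library was left out. In these runs MKI67 ran from -1.38 to -1.15 and NCAPH from 0.34 to 0.40 on the log2 scale.

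The proliferation-linked minus cohesin median went from -0.18 to -0.0076 after si-PLANE.1 for the most abundant transcript, and from -0.30 to -0.049 over the runs without 1 library, without si-PLANE.1 library 1 and library 2 respectively. After si-PLANE.2 it went from -0.35 to -0.45 on log2(FPKM + 0.1), to -0.72 for the most abundant transcript, and from -0.44 without si-ctrl library 1 to -0.23 without si-ctrl library 2.

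Single members changed sign as follows, and the cause was not tested. On log2(FPKM + 1), log2(FPKM + 0.1) and log2(TPM + 1), NCAPG stood at 0.051, 0.056 and 0.12 after si-PLANE.1, at -0.14, -0.15 and -0.29 after si-PLANE.2, and at -0.19, -0.20 and -0.41 between the siRNAs. With protein-coding transcripts only it stood at -0.17 after si-PLANE.2 and -0.017 between the siRNAs, and for the most abundant transcript at -0.066 after si-PLANE.2. On log2(TPM + 1) NCAPH stood at -0.088 after si-PLANE.2 and NCAPD3 at -0.12 between the siRNAs. SMC3 between the siRNAs, 0.07, stood at -0.20 with total counts, -0.20, -0.20 and -0.42 on the FPKM and TPM scales and -0.072 with protein-coding transcripts only, and without 1 library it ran from -0.079 to 0.22. RAD21 after si-PLANE.1 ran from -0.34 to 0.0091 over the runs without 1 library. Both turned sign without si-PLANE.1 library 1. TOP2A, MKI67, SMC2, SMC4, NCAPD2, NCAPD3 and SMC3 stayed below zero against si-ctrl in both comparisons under all of these alternatives, and came nearest to it after si-PLANE.1 with SMC4 on log2(TPM + 1), at -0.011, and NCAPD2 without si-PLANE.1 library 1, at -0.052.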
